A study of Mus musculus with 9 samples.

Results

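Neuropeptides are short signalling peptides that neurons cut from larger precursor proteins, store in dense-core vesicles and release during sustained firing. Neurotrophins are secreted growth factors that reach the same regulated pathway, and in the hippocampus both kinds of gene are known for mRNA levels that follow neuronal activity. Granins are acidic proteins of the dense-core vesicle, some of which are themselves peptide precursors.

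The genes described are 10 of the 18820 genes measured: Vgf, Bdnf, Scg2, Npy, Sst, Penk, Pdyn, Cck, Crh and Nptx2. They were listed by name, and for each gene the array probe set was selected on its mean signal over all 9 arrays. Each member had only 1 probe set that names a single gene, so this choice removed none. Vgf was already known from these data as a gene with lower values after Maresin 1 than after surgery alone. Its values in that comparison are therefore a description, and no test is attached to them.

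The study profiled hippocampal RNA from C57BL/6 mice of 12 to 14 weeks on an Affymetrix gene array, with 3 mice in each of 3 groups. One group was given Maresin 1, a lipid mediator made from docosahexaenoic acid, before orthopedic surgery (a fracture of the tibia). The surgery group had the same operation alone, and control mice formed the third. Operated mice were sampled 72 h after surgery. The labels do not state the dose of Maresin 1, the sex of the mice, or whether controls received anaesthesia or a vehicle, so fracture and anaesthesia cannot be told apart.

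Levels below are log2(signal + 16) after quantile normalization of the deposited signals, which were not equal in brightness between arrays. The median probe set signal was 78.1, 69.0 and 88.7 in the Maresin 1 arrays, 54.1, 83.2 and 85.0 in the surgery arrays, and 100.1, 73.2 and 70.3 in the control arrays. All 6 hippocampus markers checked, among them Prox1 and Wfs1, lay above 5.86, the level that 95% of olfactory receptor genes do not pass. Transcripts of the choroid plexus, the tissue that makes cerebrospinal fluid, set control replicates 2 and 3 apart. Ttr, the transthyretin gene of that epithelium, was at 8.31, 8.34 and 7.77 in the Maresin 1 arrays, at 6.66, 6.19 and 7.70 in the surgery arrays, and at 7.55, 12.55 and 12.71 in the control arrays. Each member's differences from control are therefore also given against control replicate 1 alone, in a fit that assumes that the lone control varies like the other groups.

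CREB is a transcription factor that calcium and cyclic AMP signals switch on, and its binding sequence in peptide gene promoters is a textbook route from firing to transcription. RefSeq promoter windows on GRCm38.p6, from 250 bases before to 50 after a transcription start, were at hand for 6 members: Bdnf, Cck, Npy, Pdyn, Scg2 and Sst, with 13 windows in all. The full palindrome TGACGTCA, searched on both strands, stood in 2 of these windows, those of Scg2 and Sst, and in 1.79% of all 32851 windows. The shorter core TGACG, which the palindrome contains, stood in 4 member windows, of Bdnf, Cck, Scg2 and Sst, and in 20.8% of all windows. The Cck match is TGCGTCA, which holds the core on the other strand and stood in 2.12% of all windows. A further motif searched, CACGTG, stood in 1 member window, of Cck, and in 7.15% of all windows. A match is a description of letters and not a measured site. The 3 stretches shown are the matches to TGACGTCA and TGCGTCA, with the matched letters in capitals. The Bdnf match to the shorter core is not shown. Sst is at chr16:23890874-23890903, Scg2 at chr1:79440076-79440105 and Cck at chr9:121495725-121495754, all on the minus strand.
Sst: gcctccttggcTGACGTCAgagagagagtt
Scg2: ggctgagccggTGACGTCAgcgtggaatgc
Cck: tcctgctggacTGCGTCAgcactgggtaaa
The capitals begin 48 bases before the start in Sst, 68 in Scg2 and 49 in Cck.

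Vgf showed the largest difference of the 10 genes in both comparisons of the Maresin 1 group, with lower levels there than in every other array. Vgf was already known to be low in these Maresin 1 arrays, so its rank among the 10 genes is no separate evidence. It encodes a granin-family precursor that is cut into several peptides and that neurotrophins and activity are known to induce. The gene lies on chromosome 5 (GRCm38.p6, 137025301 to 137033351). Its level was 9.08, 9.31 and 9.13 in the Maresin 1 arrays, 9.48, 9.49 and 9.53 in the surgery arrays, and 9.80, 9.48 and 9.54 in the control arrays. The 3 Maresin 1 arrays lay below all 6 others, while surgery and control arrays overlapped. In bulk tissue, fewer cells of a type and less RNA per cell cannot be told apart.

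**Figure D1:**
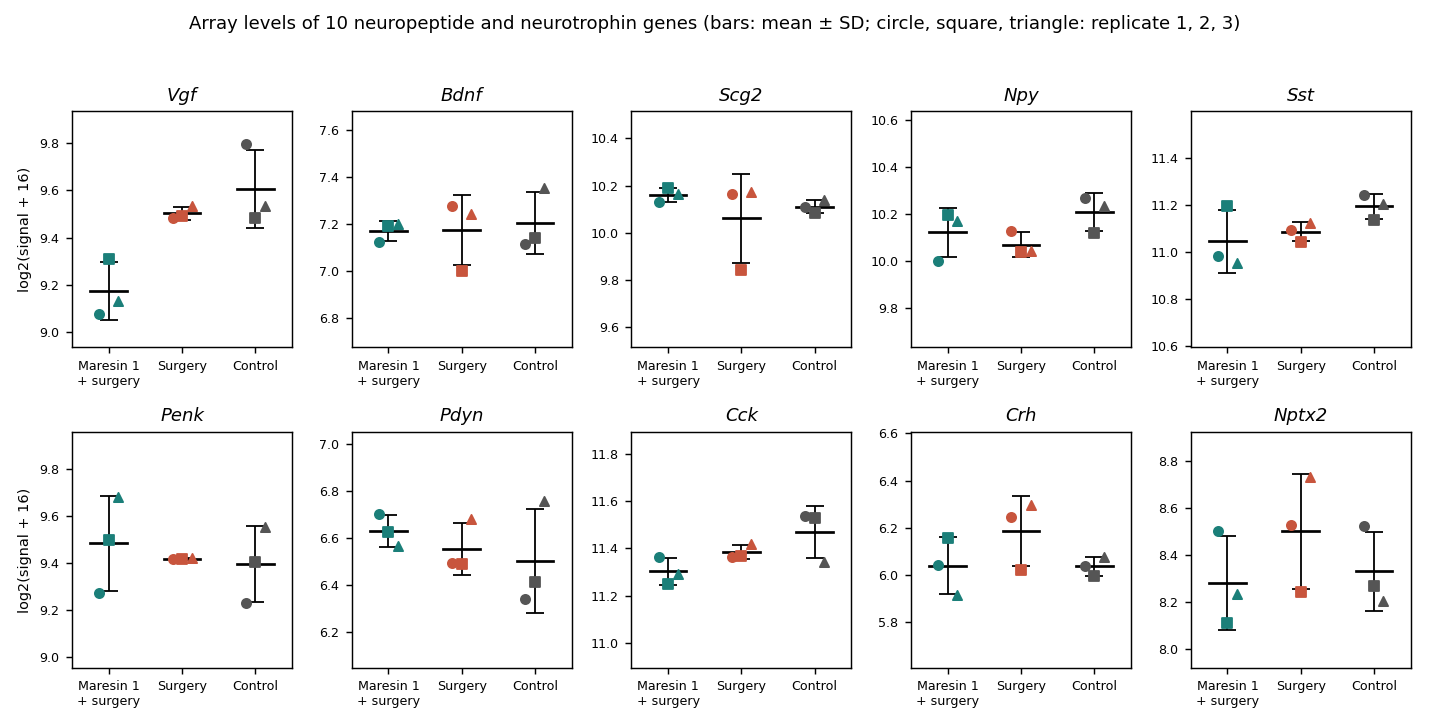
Level of each of the 10 genes in each array, as log2(signal + 16) after quantile normalization. Points are arrays, horizontal lines are group means and error bars are SD (n = 3), and every panel spans the same height; Vgf is the gene whose Maresin 1 arrays, 9.08 to 9.31, lie below all other arrays.

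Against surgery, Vgf was 1.26-fold lower with Maresin 1, at 9.17 ± 0.12 against 9.50 ± 0.03 (SD, n = 3 each), a log2 difference of -0.33. Against control it was 1.35-fold lower, at 9.17 ± 0.12 in the Maresin 1 group and 9.61 ± 0.17 in control (log2 -0.43, SE 0.08, limma adjusted p = 0.0829 over all genes). This second comparison uses the same Maresin 1 arrays, so it is not separate evidence. Without control replicate 1, the highest array, the difference was -0.34 with adjusted p = 0.0446, the single setting of 19 in which the gene passed the threshold. In that setting 245 of all genes passed, against 16 with all arrays, and the controls that remain are the 2 with high choroid plexus signal. Against control replicate 1 alone it was -0.62 (adjusted p = 0.0959). Surgery and control differed by -0.10 (95% interval -0.28 to 0.08, adjusted p = 0.877), and by -0.29 (adjusted p = 0.629) with control replicate 1 as the lone control.

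A ratio within each array was added after the values had been seen. It was taken without scaling between arrays, with the same constant added to each signal before the log as in the levels above. That constant raises dim members more than bright ones, and more so in dim arrays, so the ratio still depends in part on array brightness. Relative to the mean of the other 9 members, on the log2 scale of the deposited signals, Vgf stood at 0.18, 0.41 and 0.17 in the Maresin 1 arrays, at 0.48, 0.71 and 0.58 in the surgery arrays, and at 0.90, 0.46 and 0.55 in the control arrays. The ratio restates the Vgf values above on another scale and is no further evidence. The difference of means was -0.34 from surgery and -0.39 from control. Apart from the part due to array brightness, such a ratio shows unequal change of Vgf and the other members, not which of them changed.

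Markers of dentate granule neurons, the principal cells of the dentate gyrus, were higher with Maresin 1 than after surgery, where Vgf was lower. All 9 measured genes of that list were higher in this comparison, as were 7846 of all 18820 genes. The list median was 0.24 and that of all genes -0.02, and 0 genes of the list passed the adjusted threshold. The summed normalised signal of the list ran from 6878 to 7773 in the Maresin 1 arrays, from 6096 to 6347 in the surgery arrays and from 5320 to 7058 in the control arrays. Across the 9 arrays, Vgf and the mean deviation of this list had Pearson r = -0.74, a description of arrays that share groups and scaling. Among the lists compared with Vgf, this r was the largest in size. Control replicate 1 had both the lowest list deviation (-0.36) and the highest Vgf level. Vgf was already known to be low in the Maresin 1 arrays, so this r is no separate evidence. The part that granule neuron content has in the Vgf difference was not tested.

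Scg2 had overlapping arrays in all 3 comparisons. Scg2, on chromosome 1, encodes secretogranin II, the precursor of secretoneurin. It had levels of 10.13, 10.19 and 10.16 in the Maresin 1 arrays, 10.17, 9.84 and 10.17 in the surgery arrays, and 10.11, 10.08 and 10.14 in the control arrays. Surgery replicate 2 was the lowest array and the other 8 lay within 10.08 to 10.19. The log2 difference was 0.10 for Maresin 1 against surgery (95% interval -0.06 to 0.26, adjusted p = 0.888), -0.05 for surgery against control (adjusted p = 0.944) and 0.05 for Maresin 1 against control (-0.11 to 0.21, adjusted p = 0.873). With the lone control the last 2 values were -0.05 and 0.05.

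Of 5 further genes of granins and granule chaperones, 4 were lower with Maresin 1 than after surgery and 0 passed. In that comparison 10972 of all 18820 genes were lower. Pcsk1n, the gene of proSAAS, an inhibitor of a precursor-cutting enzyme, differed by -0.11 (SE 0.05) against surgery and by -0.15 (SE 0.05, adjusted p = 0.284) against control. Scg5, which encodes a chaperone of the peptide-cutting enzyme PC2, differed by 0.09 against surgery, and Scg3 by -0.02. Chromogranins A and B belong to the same list, whose median was -0.05 against surgery.

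Bdnf, on chromosome 2, encodes brain-derived neurotrophic factor, the neurotrophin best known for activity-dependent transcription in hippocampal neurons. Its single probe set is annotated to several Bdnf transcripts, so those of separate starts were not told apart. Bdnf was at 7.12, 7.19 and 7.20 in the Maresin 1 arrays, at 7.28, 7.001 and 7.24 in the surgery arrays, and at 7.11, 7.14 and 7.35 in the control arrays. All groups overlapped. Its log2 difference was -0.0028 for Maresin 1 against surgery (95% interval -0.22 to 0.21), -0.03 for surgery against control (-0.24 to 0.18) and -0.03 for Maresin 1 against control (-0.25 to 0.18). With the lone control the differences from control were 0.06 for surgery and 0.06 for Maresin 1, so their sign turned.

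The receptors of neurotrophins gave 0 called genes of 4 measured in each comparison. Ngfr, the low-affinity neurotrophin receptor, differed by -0.16 (SE 0.09) for Maresin 1 against surgery and by -0.20 (SE 0.09, adjusted p = 0.43) for Maresin 1 against control. Ntrk3, the receptor of neurotrophin 3, differed by 0.02 between Maresin 1 and surgery, and Sort1, the sorting receptor sortilin, by -0.02. Of the other neurotrophins only Ntf5 was measured, and it lay below the olfactory receptor level.

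Nptx2 encodes neuronal pentraxin 2, a secreted protein that gathers AMPA receptors at excitatory synapses and is induced by activity. It was the most variable member, with a pooled SD within groups of 0.21, where the median over all genes above the olfactory receptor level was 0.10. Its level was 8.50, 8.11 and 8.23 in the Maresin 1 arrays, 8.53, 8.24 and 8.73 in the surgery arrays, and 8.52, 8.27 and 8.20 in the control arrays. All groups overlapped, with the highest array after surgery and the lowest with Maresin 1. The Maresin 1 group was lower than surgery by a log2 difference of -0.22 (SE 0.13, 95% interval -0.50 to 0.06, adjusted p = 0.861). That difference was -0.10 without surgery replicate 3 and -0.35 without surgery replicate 2, and it was -0.33 without Maresin 1 replicate 1 and -0.13 without Maresin 1 replicate 2. Surgery differed from control by 0.17 (SE 0.13, adjusted p = 0.86) and Maresin 1 from control by -0.05 (SE 0.13, adjusted p = 0.932). Against control replicate 1 alone the surgery difference was -0.02, so its direction rests on control replicates 2 and 3, and the Maresin 1 difference was -0.24. Nptx1, a related pentraxin, differed by -0.06 and Gria4, an AMPA receptor subunit, by -0.02 between Maresin 1 and surgery.

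Sst, Npy and Cck are peptide genes that mark classes of inhibitory interneurons, and Cck is made by pyramidal cells as well. Sst encodes somatostatin, an inhibitory peptide of dendrite-targeting interneurons. Sst was at 10.99, 11.20 and 10.95 in the Maresin 1 arrays, at 11.09, 11.04 and 11.12 in the surgery arrays, and at 11.24, 11.14 and 11.21 in the control arrays. All surgery arrays lay below all control arrays, by a narrow margin, while the Maresin 1 arrays spread across both. Surgery differed from control by -0.11 (SE 0.06, 95% interval -0.24 to 0.02, adjusted p = 0.813), Maresin 1 from control by -0.15 (SE 0.06, adjusted p = 0.355) and Maresin 1 from surgery by -0.04 (SE 0.06, adjusted p = 0.941). With the lone control, surgery differed by -0.16 and Maresin 1 by -0.20.

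Npy encodes neuropeptide Y, which dampens glutamate release. Its level was 10.002, 10.19 and 10.17 in the Maresin 1 arrays, 10.13, 10.04 and 10.04 in the surgery arrays, and 10.27, 10.12 and 10.24 in the control arrays. Surgery replicates 2 and 3 were below every control array, and surgery replicate 1 was not. The difference of surgery from control was -0.14 (SE 0.06, adjusted p = 0.788), that of Maresin 1 from surgery 0.05 (SE 0.06, adjusted p = 0.927) and that of Maresin 1 from control -0.09 (SE 0.06, adjusted p = 0.673). With the lone control, the values were -0.20 for surgery and -0.15 for Maresin 1.

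Cck encodes cholecystokinin, and its promoter stretch is shown above. It had levels of 11.36, 11.25 and 11.29 in the Maresin 1 arrays, 11.36, 11.37 and 11.42 in the surgery arrays, and 11.54, 11.53 and 11.34 in the control arrays. The Maresin 1 arrays lay below the surgery arrays without overlap, although replicate 1 of each differed by less than the second decimal. Control replicates 1 and 2 were the highest arrays. Maresin 1 differed from surgery by -0.08 (SE 0.05, adjusted p = 0.878) and from control by -0.17 (SE 0.05, adjusted p = 0.247), and surgery differed from control by -0.09 (SE 0.05, adjusted p = 0.829). With the lone control, Maresin 1 differed by -0.23 (adjusted p = 0.269) and surgery by -0.15 (adjusted p = 0.684).

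The directions of these surgery differences depended on the scale. Under scaling of all arrays to 1 median, the surgery minus control difference was 0.04 for Sst, 0.03 for Npy, 0.05 for Cck and 0.07 for Vgf, while the median of all genes was then 0.10. Relative to that median the 4 genes were still below. On the quantile scale the median of all genes was 0.02.

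Crh encodes corticotropin-releasing hormone, the stress peptide, made in the hippocampus by a subset of interneurons. It was the dimmest member, close to the olfactory receptor level of 5.86, where array signals say little about small differences. Crh was at 6.04, 6.16 and 5.92 in the Maresin 1 arrays, at 6.25, 6.02 and 6.295 in the surgery arrays, and at 6.04, 5.99 and 6.07 in the control arrays. Surgery replicates 1 and 3 were the highest arrays, and all groups overlapped. Maresin 1 differed from surgery by -0.15 (SE 0.10, adjusted p = 0.884), and surgery differed from control by 0.15 (SE 0.10, adjusted p = 0.836), which was 0.01 when each array was centred on the median of genes above the olfactory receptor level. Maresin 1 and control differed by 0.0029, and with the lone control the values were 0.15 for surgery and 0.0007 for Maresin 1.

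Interneuron markers other than these peptides were lower in 8 of 9 genes with Maresin 1 than after surgery (median -0.08) and higher in 7 of 9 after surgery than in control (median 0.04), with 0 called in either. Of all 18820 genes, 10972 were lower in the first comparison and 10983 higher in the second. The summed normalised signal of the interneuron list was 6192 to 7518 in the Maresin 1 arrays, 6946 to 7180 in the surgery arrays and 6249 to 7430 in the control arrays. Between Maresin 1 and control the list went both ways, with 4 genes higher and 5 lower (median -0.04) and 0 called. Gad2, a GABA-synthesis enzyme gene picked after its value was seen, differed by 0.21 there. Nos1, the neuronal nitric oxide synthase gene, differed by -0.25 (SE 0.07, adjusted p = 0.186) in the same comparison. The part of interneuron content in the Sst, Npy and Cck values was not tested.

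Penk and Pdyn encode the opioid precursors proenkephalin and prodynorphin, the second of which is made by dentate granule neurons. Penk was at 9.27, 9.50 and 9.68 in the Maresin 1 arrays, at 9.42, 9.42 and 9.42 in the surgery arrays, and at 9.23, 9.40 and 9.55 in the control arrays. The surgery arrays sat nearly on one value, inside the wider spread of both other groups. Penk differed by 0.07 (SE 0.10) between Maresin 1 and surgery, by 0.02 (SE 0.10) between surgery and control and by 0.09 (SE 0.10, adjusted p = 0.813) between Maresin 1 and control. Against control replicate 1 alone, the lowest array, the last difference was 0.25 (adjusted p = 0.546) and that of surgery was 0.19 (adjusted p = 0.793).

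Pdyn was a dim gene, at 6.70, 6.63 and 6.57 in the Maresin 1 arrays, at 6.50, 6.49 and 6.68 in the surgery arrays, and at 6.34, 6.41 and 6.76 in the control arrays. Control replicate 3 was the highest array and control replicate 1 the lowest, so control spanned all others. The difference was 0.08 (SE 0.11) between Maresin 1 and surgery, 0.05 (SE 0.11) between surgery and control and 0.13 (SE 0.11, adjusted p = 0.756) between Maresin 1 and control. Against control replicate 1 alone the last was 0.29 (adjusted p = 0.511) and that of surgery was 0.21 (adjusted p = 0.775).

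**Figure D2:**
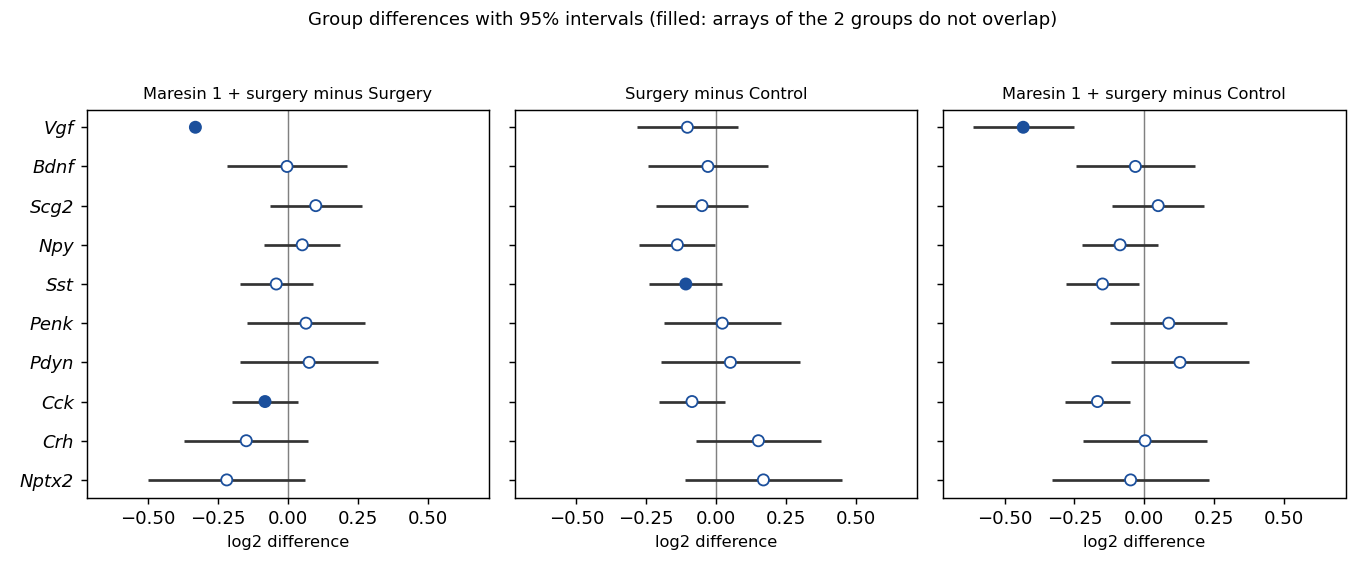
Log2 difference of each gene in the 3 comparisons (x axis), with 95% intervals from limma, not drawn for Vgf in Maresin 1 against surgery; filled points mark genes whose arrays do not overlap between the 2 groups. Vgf lies furthest from 0 in both comparisons of the Maresin 1 group, at -0.33 against surgery and -0.43 against control. It was already known to be low in these Maresin 1 arrays.

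Over the 10 genes, 4 were higher and 6 lower in each of the 3 comparisons, which share arrays with each other. Leaving aside Vgf in Maresin 1 against surgery, which is not tested, no member passed limma's adjusted threshold of 0.05 in any comparison. The share of all genes that did so was 0% for Maresin 1 against surgery, 0% for surgery against control, 0.085% for Maresin 1 against control (16 genes) and 0% for any difference among the groups by the moderated F test. At an unadjusted limma p under 0.05, 1 member passed for surgery against control (Npy) and 3 for Maresin 1 against control (Vgf, Sst and Cck). The pass of Vgf uses the Maresin 1 arrays in which it was already known to be low, so it is no separate evidence. Of all 18820 genes, 1065 passed for Maresin 1 against surgery, 1168 for surgery against control and 2160 for Maresin 1 against control. The median member difference was -0.02 for Maresin 1 against surgery, -0.04 for surgery against control and -0.04 for Maresin 1 against control.

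Arrays did not overlap for 2 members between Maresin 1 and surgery (Vgf and Cck), where 13% of all genes did not. They did not overlap for 1 member between surgery and control (Sst), where the share of all genes was 11.5%, and for 1 between Maresin 1 and control (Vgf), where it was 14.3%. These counts of members lie near the share among all genes.

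**Figure D3:**
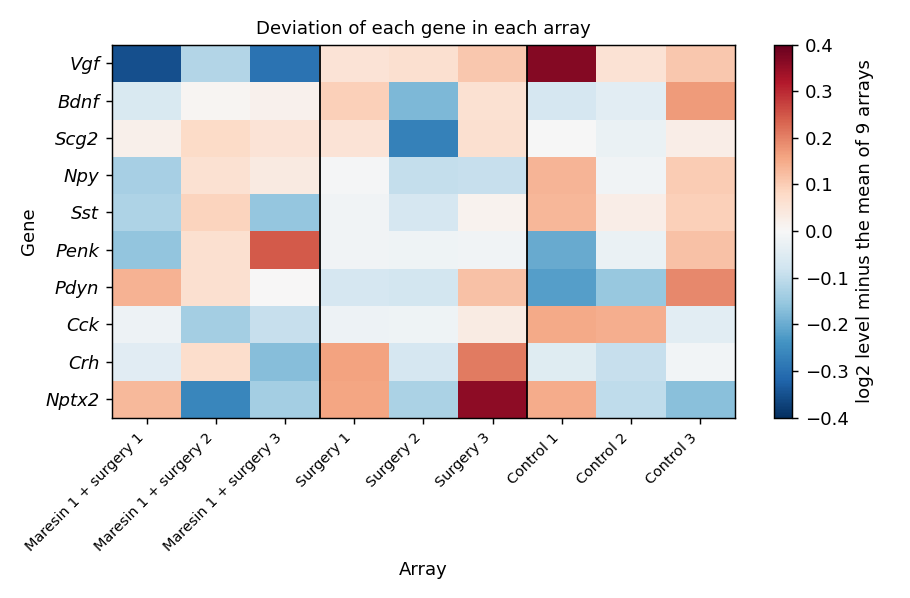
Deviation of each gene (rows) from its own mean over the 9 arrays (columns), on the log2 scale given by the colour bar. Vgf is low in all 3 Maresin 1 arrays, by -0.35, -0.12 and -0.30, and Scg2 and Bdnf are both low in surgery replicate 2, by -0.27 and -0.18.

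All pairs of members were compared from array to array, and those named first had the highest r or the lowest. Over the 9 arrays, Pearson r was 0.77 for Vgf with Sst, 0.73 for Bdnf with Scg2 and 0.65 for Npy with Sst, and -0.65 for Penk with Cck. After subtracting group means, Vgf with Sst kept 0.76 and Bdnf with Scg2 had 0.82, while Vgf with Cck, at 0.65 before, had 0.06. After the same subtraction, Scg2 with Crh, at 0.36 before, had 0.80, and Sst with Crh, at 0.34 before, had 0.76. Surgery replicate 2 was low for both Bdnf and Scg2, by -0.18 and -0.27, and their r without it was not computed. A search of all pairs over 9 arrays can return such r for unrelated genes. All points also share arrays, brightness and normalization, so these are descriptions.

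The genes whose pattern was most like that of Vgf over the 9 arrays, among 13360 genes searched, were Scamp5 (r = 0.97), Nckipsd (r = 0.95) and Zfp385b (r = 0.95). Scamp5 encodes a secretory carrier membrane protein of neurons. It was at 11.34, 11.44 and 11.38 in the Maresin 1 arrays, at 11.51, 11.47 and 11.49 in the surgery arrays, and at 11.56, 11.50 and 11.51 in the control arrays. Its differences were smaller than those of Vgf, at -0.10 for Maresin 1 against surgery and -0.14 against control. Scamp5 was picked for its likeness to Vgf on these same arrays. The direction of its group differences follows from that choice and is no further evidence. For Cck the nearest gene was Inpp5e (r = 0.97), for Sst Aloxe3 (r = 0.95), for Npy Zc3h6 (r = 0.95), for Penk Mrtfb (r = 0.94), for Nptx2 Tsga8 (r = 0.94), for Scg2 Fah (r = 0.92), for Crh Nubpl (r = 0.92), for Pdyn Efemp1 (r = 0.91) and for Bdnf Psap (r = 0.91). By ranks, the Spearman correlation of Scg2 with Fah was only 0.47. A search of 13360 genes over 9 arrays can return such r for unrelated genes, so these matches are descriptions.

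The receptors of the member peptides were mostly lower with Maresin 1 than after surgery, in 13 of 16 genes with a median of -0.07, and 0 were called. After surgery 14 of the 16 were higher than in control (median 0.06), again with 0 called, and both counts use the surgery arrays. Of all 18820 genes, 10972 were lower in the first comparison and 10983 higher in the second. Only 13 of the 16 receptors lay above the olfactory receptor level. Cckbr, the main brain receptor of cholecystokinin, was at 8.04 ± 0.20 in the Maresin 1 group and 8.40 ± 0.07 after surgery (SD, n = 3 each), a log2 difference of -0.36 (SE 0.13, adjusted p = 0.859). Sstr3, a somatostatin receptor of neuronal cilia, differed by -0.26 (SE 0.09, adjusted p = 0.859). Npy1r, a neuropeptide Y receptor, differed by 0.14 (SE 0.07, adjusted p = 0.796) between surgery and control.

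Enzymes that cut and finish peptide precursors gave 0 called of 5 measured. Pcsk1, a convertase of dense-core vesicles, differed by -0.21 (SE 0.15) between Maresin 1 and surgery and by 0.26 (SE 0.15) between surgery and control. Furin, a convertase of the Golgi, differed by -0.13 (SE 0.07) between Maresin 1 and surgery. Among 12 other neuropeptide precursors, 9 were lower with Maresin 1 than after surgery (median -0.12) and 0 were called. In that comparison 10972 of all 18820 genes were lower. Nmb, the neuromedin B gene, differed by 0.21 (SE 0.10) and Cartpt, the CART peptide precursor, by -0.19 (SE 0.10).

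**Figure D4:**
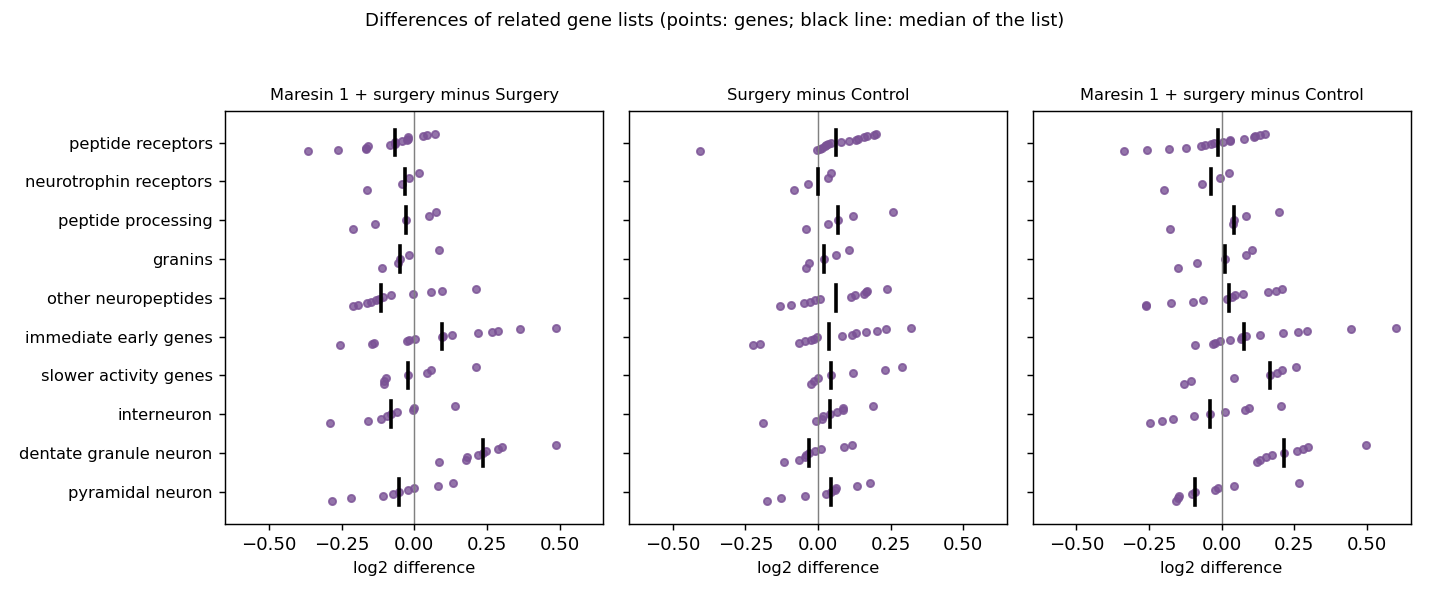
Log2 differences of the genes of related lists in the 3 comparisons; points are genes and black lines are list medians. The median of the peptide receptors is -0.07 for Maresin 1 against surgery and 0.06 for surgery against control.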

How the data were processed

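Hippocampal RNA of 9 mice was hybridised to Affymetrix arrays, from 6 ug total RNA each per the labels. The deposited values are linear intensity per probe set, for which the submitters' processing notes name Affymetrix Expression Console. Which version and summary method it ran is not given in the sources used here. Of 35556 probe sets, 21218 named 1 gene. All probe sets were quantile normalised, log2(x + 16) was taken, and the one-gene probe set with the highest mean stood for each of 18820 genes. Groups were compared with limma 3.58.1 in R 4.3.3 (lmFit, eBayes with trend) in 1 model over all arrays, with Benjamini-Hochberg adjustment over all genes. The method was tested on simulated data. The number of arrays limits the precision. The p-values rest on 1 spread per gene, shared by the 3 groups of 3 mice and moderated by the trend over all genes.

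The members and lists were chosen with earlier results of these data known. Named genes are all members, up to 3 detected genes per list with the smallest moderated F p, the 3 genes most like each member, and Ttr. Alternatives covered scaling, pseudocount, filter, probe set rule, variance prior, replicate block and arrays left out. Of the lists, 12 genes were not used here. The main model did not pair samples by replicate number, since the labels do not say that a number marks a shared batch.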

Additional observations from a re-analysis of the deposited data

How the results depend on the processing

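Counts of genes called over the whole table depended on the processing, and the cause was not tested. For surgery against control, 0 genes became 42 without normalization between arrays and 37 with arrays scaled to one median. For Maresin 1 against control, 16 genes became 43 and 38 under these settings, 0 without the variance trend, and 4 with control replicates 2 and 3 left out, where the lone control is assumed to vary like the other groups. The moderated F count of 0 (1665 genes at an unadjusted p under 0.05) became 46, 44, 4 with arrays centred on detected genes, and 3 without control replicates 2 and 3. Leaving out 1 array gave 0 to 169 genes for surgery against control, 0 to 245 for Maresin 1 against control and 0 to 183 for the F test, the highest each time without control replicate 1. Maresin 1 against control gave 0 without control replicate 2, without surgery replicate 3 or without any 1 Maresin 1 array, 3 without surgery replicate 1 and 2 without surgery replicate 2. Maresin 1 against surgery gave 0 in all 19 alternatives. With the replicate number as a block, Maresin 1 against control gave 0 genes. Same-numbered arrays had correlations of -0.24 to 0.06 in 9 pairs, so no pairing by number was seen. Low correlations cannot exclude a shared batch, and the labels do not state one.

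Of 570 member values recomputed, 19 moved by over 1 SD and 1 was called, that of Vgf against control. The Vgf difference of Maresin 1 from surgery ranged from -0.46 to -0.28 over the alternatives, a range on the arrays in which the gene was first noticed and no support for it. Dim genes such as Crh and Pdyn limit what small differences can show.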

Other observations

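Of 14 immediate early genes, 9 had higher levels in the Maresin 1 group than after surgery (median 0.10) and 0 were called by limma. In that comparison 7846 of all 18820 genes were higher. Fos, whose mRNA marks recent firing, was at 7.55 ± 0.46 in the Maresin 1 group and 7.07 ± 0.39 after surgery (SD, n = 3 each), a log2 difference of 0.49 (SE 0.27, adjusted p = 0.859). Egr3, a transcription factor of the same class, differed by -0.14 (SE 0.07). Over the 9 arrays the mean deviation of this list had r = -0.12 with Vgf, 0.63 with Nptx2 and -0.66 with Penk, as descriptions of arrays that share normalization.

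Of 7 slower activity-regulated genes, 4 were lower with Maresin 1 than after surgery (median -0.02), and 5 were higher with Maresin 1 than in control (median 0.17). Of all 18820 genes, 10972 were lower in the first comparison (median -0.02) and 9216 higher in the second (median -0.0032). None of the 7 was called by limma in either comparison, where 0 and 16 of all genes were called. Gadd45g, of the same family as Gadd45b, differed by 0.26 (SE 0.13, adjusted p = 0.5) between Maresin 1 and control. Nrn1, which encodes neuritin, differed by -0.10 (SE 0.05) for Maresin 1 against surgery and by -0.13 (SE 0.05, adjusted p = 0.301) for Maresin 1 against control. Its arrays did not overlap in either comparison, where those of 13% and 14.3% of all genes did not. Gadd45b, a stress and activity gene, differed by 0.29 (SE 0.10, adjusted p = 0.708) between surgery and control.

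Markers of pyramidal neurons, which are cells of the hippocampus itself, had a median of -0.05 for Maresin 1 against surgery. Among other tissues, the medians for the same comparison were 0.02 for striatum, -0.07 for thalamus, -0.18 for neocortex, -0.22 for meninges and -0.01 for choroid plexus. In each of these lists 0 genes were called. The choroid plexus median was -2.04 for surgery against control.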
